A study of Homo sapiens with 18 samples.

Results

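The kallikrein-related peptidase genes are described here in 2 liver cancer clones and the line they were set against. Members are the genes whose symbol is KLK followed by a number alone in the tables of both comparisons. This rule found 5 genes (KLK5, KLK6, KLK7, KLK8 and KLK10) among 14765 genes present in both tables. GENCODE 29 annotates 15 genes with such symbols, and the other 10 were not analysed here. The family was chosen by its measured fold changes in these same comparisons, in which KLK7, KLK8 and KLK10 had large values, so the changes of the family over HepG2 are given as a description, and the count of members past a threshold supports nothing by itself.

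The study sequenced poly-A RNA from 18 libraries in 3 groups of 6. H33 and H12 are HepG2 clones whose labels give the genotype DNAJB1-PRKACA, the gene fusion that defines fibrolamellar carcinoma, and HepG2, labelled WT, is the hepatoblastoma line used as control. The labels name no treatment and describe growth in RPMI1640 with fetal bovine serum; H33 and H12 are each 1 clone, so a difference from HepG2 covers everything that separates the lines. The values used here are 1 table of the authors' statistics per clone (14888 genes for H33 and 14896 for H12), so no value per library, library depth or SD can be given. The 6 samples per line are described as biological replicates, with no word on separate cultures, and p-values measure only the spread between these samples.

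Kallikrein-related peptidases are secreted serine proteases of the chymotrypsin fold, encoded by a cluster of tandem genes on human chromosome 19. They are made as inactive precursors that lose a short propeptide, often by the action of another kallikrein or of plasmin, and are held in check by inhibitors of the SPINK and serpin families. KLK5 and KLK7 cut the corneodesmosomes that join cells of the outer skin, KLK6 is abundant in the nervous system, KLK8 (neuropsin) was first known from the brain, and KLK10 was first described in normal breast epithelium. The family is better known from skin, glands and brain than from hepatocytes.

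The promoters of the members are shown because the 5 genes lie in 1 stretch of the cluster, with KLK9 between KLK8 and KLK10, and were higher together in both clones. RefSeq promoter windows on GRCh38.p14, running from 250 bases before to 50 bases after the annotated start, were tabled for 4 of the 5 members (KLK5, KLK6, KLK7 and KLK10); where a gene has several windows the first tabled one is printed. All are on the minus strand of chromosome 19, at chr19:50952989-50953288 for KLK5, chr19:50969542-50969841 for KLK6, chr19:50983868-50984167 for KLK7 and chr19:51019812-51020111 for KLK10. Each is written 5′ to 3′, and capitals mark a GC box (GGGCGG, either strand) or the core of the cAMP response element (TGACG, either strand).
KLK5: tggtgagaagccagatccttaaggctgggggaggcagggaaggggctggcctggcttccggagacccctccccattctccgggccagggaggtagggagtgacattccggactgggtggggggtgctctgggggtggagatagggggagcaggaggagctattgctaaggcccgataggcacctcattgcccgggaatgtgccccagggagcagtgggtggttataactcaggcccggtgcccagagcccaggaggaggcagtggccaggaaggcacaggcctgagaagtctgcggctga
KLK6: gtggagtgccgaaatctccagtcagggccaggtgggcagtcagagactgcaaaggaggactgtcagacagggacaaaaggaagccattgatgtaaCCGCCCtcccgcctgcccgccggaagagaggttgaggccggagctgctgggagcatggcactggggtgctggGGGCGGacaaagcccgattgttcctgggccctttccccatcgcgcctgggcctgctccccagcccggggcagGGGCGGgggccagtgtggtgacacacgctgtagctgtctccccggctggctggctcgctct
KLK7: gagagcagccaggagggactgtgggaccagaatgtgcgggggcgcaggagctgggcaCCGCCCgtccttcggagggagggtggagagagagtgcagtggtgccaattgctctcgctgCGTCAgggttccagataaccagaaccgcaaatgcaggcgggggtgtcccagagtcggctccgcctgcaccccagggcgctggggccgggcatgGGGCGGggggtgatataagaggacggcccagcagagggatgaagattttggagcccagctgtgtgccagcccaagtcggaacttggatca
KLK10: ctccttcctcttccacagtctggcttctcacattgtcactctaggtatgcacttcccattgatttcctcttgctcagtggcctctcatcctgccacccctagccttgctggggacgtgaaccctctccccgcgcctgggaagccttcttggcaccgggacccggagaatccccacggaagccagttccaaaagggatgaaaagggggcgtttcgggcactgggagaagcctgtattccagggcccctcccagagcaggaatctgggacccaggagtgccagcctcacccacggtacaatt

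The content of G and C was 64.7% in KLK5, 66.3% in KLK6, 65.0% in KLK7 and 59.0% in KLK10, against a median of 58.3% over 27305 tabled promoters of the same length. KLK6 held 3 GC boxes and KLK7 held 2, while the windows of KLK5 and KLK10 held none; 44.6% of all tabled promoters hold at least 1. The core TGACG occurred once, in KLK7, on the opposite strand at position -133 from the start, and 25% of all promoters hold it. The full cAMP response element TGACGTCA (2.0% of all promoters), the AP-1 site TGANTCA (7.8%), the TATA box TATAAA (12%) and AGAACA, the core of an androgen receptor site (14.9%), were in none of the 4 windows on either strand. The E-box CANNTG, found in 68.9% of promoters, occurred in KLK6 and KLK7. These matches describe letters in a short window. Variants of a site, such as other spellings of the TATA box, were not searched, and binding was not measured.

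The liver markers of the labelled cell type were far lower in both clones than in HepG2. All 10 hepatocyte markers were called lower in each clone, beside 45.3% of all genes in H33 and 44.3% in H12. Their log2 fold changes ran from -16.75 to -6.95 in H33 and from -6.20 to -5.79 in H12 in the authors' deposited tables. Their implied SE ran from 0.06 to 0.12 in H33 and from 0.73 to 1.59 in H12. ALB stood at 22.0 CPM in H33 and 349 CPM in H12, against 20980 CPM in HepG2. The same held beyond the markers. Among 138 genes with at least 100 CPM in HepG2 and a log2 fold change of -7 or below in H33, a set defined after the data were seen, fold changes in the authors' deposited tables had a median of -8.89 and an SD of 1.38 in H33, and a median of -5.90 and an SD of 0.16 in H12. In H12 these genes thus lay near 1 common share of their HepG2 level (median 1.67%), and the median implied SE was 0.08 in H33 and 1.19 in H12. The same HepG2 libraries enter both tables, so the larger SE lies with the H12 libraries. Which of them stand apart cannot be seen without values per library, and H12 levels given here, those of the kallikreins included, are means over all 6. In bulk RNA, fewer cells with a gene on and less RNA per cell cannot be told apart. The source of the H12 levels of these liver genes was not tested, so they are not read as expression of the clone. Of the markers of other cell types, fibroblast genes had 2 higher and 1 lower of 3 analysed in H33 and 1 and 1 of 3 in H12, with the summed level at 1441 CPM in H33 and 1191 CPM in H12, against 10.3 CPM in HepG2, where COL1A2 gave nearly all of the level in the clones (1440 and 1190 CPM). Endothelial genes had 1 lower of 1 analysed, leukocyte genes 3 lower of 3, and cholangiocyte genes 1 higher and 2 lower of 3, in each clone. Summed levels were 0.385 and 0.312 CPM against 1.20 CPM for endothelial genes, 5.39 and 52.5 CPM against 3133 CPM for leukocyte genes, nearly all of it LYZ in HepG2, and 264 and 266 CPM against 377 CPM for cholangiocyte genes, in H33, H12 and HepG2. PECAM1, PTPRC and CD3E, defining markers of endothelium and leukocytes, were not analysed here. The part of these shifts in the kallikrein values was not tested. PRKACA, one partner of the fusion, stood at 358 CPM in H33 and 340 CPM in H12, against 80.6 CPM in HepG2, and DNAJB1 at 178 CPM in H33 and 173 CPM in H12, against 204 CPM, where the fall passed in H33 and not in H12 (adjusted p = 0.0609 in the authors' deposited table). Reads of the fusion transcript and of native PRKACA are not told apart in these levels.

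All 5 members were near silent or low in HepG2 and well above it in both clones. Levels are CPM (counts scaled to a common library size) implied for each group by the mean level and the fold change in the authors' deposited tables. KLK6, a trypsin-like protease, stood at 500.3 CPM in H33 and 393 CPM in H12, against 1.01 CPM in HepG2. KLK7, the chymotrypsin-like enzyme of the outer skin, stood at 38.7 CPM in H33 and 21.9 CPM in H12, against 0.0348 CPM in HepG2. KLK5, a trypsin-like protease that can activate KLK7 in skin, stood at 28.1 CPM in H33 and 17.9 CPM in H12, against 0.0796 CPM in HepG2. Each clone thus lay far above HepG2 for these 3 genes, and H33 above H12.

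KLK8 and KLK10 had no measurable level in HepG2. KLK8 stood at 14.8 CPM in H33 and 6.52 CPM in H12, with HepG2 at 0.00533 CPM. KLK10 stood at 9.92 CPM in H33 and 7.01 CPM in H12, with HepG2 at 0.00538 CPM. The HepG2 values of this pair are the fitted floor of the authors' deposited tables, where genes without reads gather. A fold change against them depends on the prior count, so the deposited ones are not printed. They still enter the median of the members and the differences between the clones below, and values with low levels raised are given at the end.

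**Figure D1:**
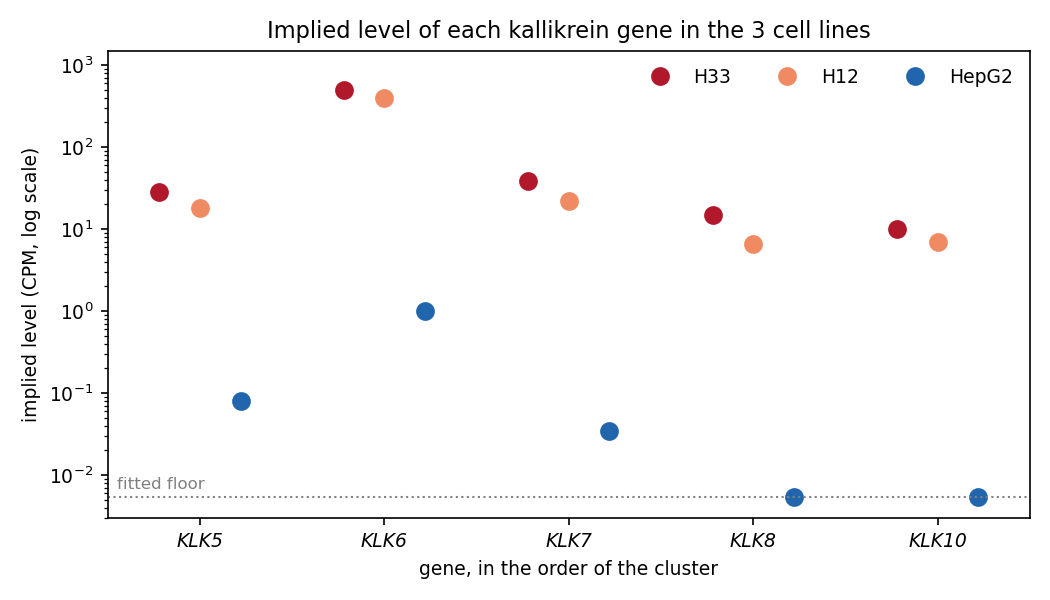
Implied level of each member in CPM on a log scale, with genes in the order of the cluster and 1 point each for H33, H12 and HepG2 (values from the H33 table for HepG2); the points are group levels implied by the deposited statistics and carry no error bars. Both clones lie above HepG2 for every member, from 500.3 CPM (KLK6, H33) to 6.52 CPM (KLK8, H12), while KLK8 and KLK10 in HepG2 sit at the fitted floor.

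In the authors' deposited tables the log2 fold change of KLK6 over HepG2 was 8.96 in H33, with an SE of 0.07, and 8.61 in H12, with an SE of 0.24. KLK7 had 10.12 (SE 0.17) in H33 and 9.32 (SE 0.18) in H12 in the authors' deposited tables. KLK5 had 8.47 (SE 0.16) in H33 and 7.83 (SE 0.18) in H12 in the authors' deposited tables. The SE is the one implied by the fold change and its likelihood ratio, not a spread over libraries. By size of rise in the authors' deposited tables, KLK7 was at place 11 in H33 and 20 in H12, KLK6 at 38 and 43, and KLK5 at 67 and 132. These places depend on how low levels in HepG2 are treated: with every level below 0.1 CPM raised to that value, KLK6 was at place 10 in H33 and 11 in H12, KLK7 at 17 and 50, and KLK5 at 31 and 78, so KLK6 came before KLK7. The log2 fold change of KLK7 was then 8.60 in H33 and 7.78 in H12.

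All 5 members were past an adjusted p of 0.05 as higher in H33, and all 5 as higher in H12. In the same direction 44.2% of all 14888 genes were past it in H33 and 41.8% of all 14896 in H12, and in either direction 89.6% in H33 and 86.0% in H12. Nothing is read from the count. KLK5, KLK7, KLK8 and KLK10 had HepG2 levels under 0.1 CPM, and all 604 genes with so low an implied HepG2 level in the H33 table were called higher in H33 (100%), as were all 584 in the H12 table (100%). KLK6 is the member with a HepG2 level above that. The median log2 fold change of the 5 members in the authors' deposited tables was 10.12 in H33 and 9.32 in H12, or 8.14 and 7.48 when every level below 0.1 CPM is raised to that value. The medians of all genes in the authors' deposited tables were -0.02 and -0.03. In H33 859 genes (5.77%) and in H12 826 genes (5.55%) had a log2 fold change of at least 5.

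KLK6 made up most of the kallikrein RNA. The members summed to 592 CPM in H33 and 447 CPM in H12, against 1.13 CPM in HepG2, and KLK6 gave 84.5% of the sum in H33 and 88.1% in H12. Levels per kilobase of annotated exon allow a rough comparison between genes. On this measure KLK6 stood at 253 CPM per kb in H33 and 199 in H12. KLK5 followed with 17.0 CPM per kb in H33 and 10.8 in H12, and KLK7 with 15.9 and 9.01. KLK8 had 7.91 CPM per kb in H33 and 3.50 in H12, and KLK10 had 2.57 and 1.82. On this measure the order of the 5 genes was the same in both clones. The divisor is the union of all annotated exons, not the transcripts in use, and the order depends on it. In plain CPM KLK7 lay above KLK5 in both clones, and KLK10 above KLK8 in H12 (7.01 and 6.52 CPM). KLK5 and KLK7 differed by 0.10 log2 units of CPM per kb in H33 and by 0.26 in H12. The combined SE of their fold changes over HepG2 was 0.23 in H33 and 0.26 in H12. That SE holds the HepG2 spread and does not measure the error of this difference, so their order was not tested. In HepG2, KLK6 stood at 0.510 CPM per kb, against 0.0481 for KLK5 and 0.0143 for KLK7.

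The implied level of each member was higher in H33 than in H12, and 1 of the 5 differences, that of KLK7, passed the test. Since HepG2 is shared, the difference of the fold changes in the authors' deposited tables compares the clones with each other. For KLK7 it was 0.80 log2 units, H33 minus H12 (SE 0.25, 95% interval 0.32 to 1.29), a ratio of 1.74. This passed a two-sided normal test adjusted by Benjamini-Hochberg over all 14765 shared genes (adjusted p = 0.0264), where 5.40% of genes passed, 1.51% as higher and 3.89% as lower in H33. The family was chosen with these fold changes known, so no difference of a member is independent of the choice. The difference also rests on the mean of the H12 libraries, whose SE is large for the genes described above, and their part in it was not tested.

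KLK8 showed the largest difference in size of the 5, 1.12 (SE 0.45, interval 0.23 to 2.01, ratio 2.17), and did not pass (adjusted p = 0.175, unadjusted p = 0.0136). The difference of KLK5 was 0.64 (SE 0.24, interval 0.18 to 1.11, ratio 1.56) with an adjusted p = 0.104 (unadjusted p = 0.00691). That of KLK10 was 0.43 (interval -0.48 to 1.33, adjusted p = 0.925), and that of KLK6 was 0.35 (interval -0.14 to 0.84, adjusted p = 0.731). These intervals include no difference for KLK6 and KLK10, and also more than the size seen for KLK7. Among the 792 genes with a log2 fold change of at least 5 in both clones, the difference had a median of 0.06 with quartiles of -0.06 and 0.21, and 503 (63.5%) lay higher in H33. Of these 792 genes, 13 (1.64%) passed the test of the difference in either direction, KLK7 among them. The spread of HepG2 enters both standard errors although HepG2 drops out of the difference, and at the floor, where HepG2 has KLK8 and KLK10, the test is unreliable. The adjusted p of KLK7 also depends on which genes are tested with it. With genes under 0.1 CPM in any group left out, 273 of 13449 genes passed, against 797 of 14765. KLK7, at 0.0348 CPM in HepG2, is among those left out.

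**Figure D2:**
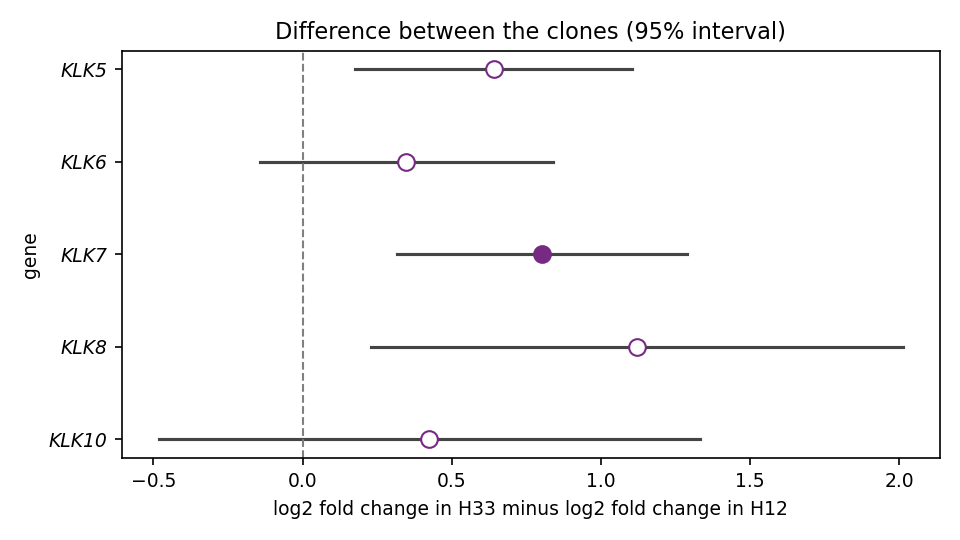
Log2 fold change in H33 minus that in H12 for each member (points) with 95% intervals from the implied standard errors (lines); the filled point passed the adjusted threshold and open points did not. Every point lies right of 0, from 0.35 (KLK6) to 1.12 (KLK8), and the intervals of KLK6 and KLK10 cross 0.

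The implied SE of KLK6 was larger in H12 than in H33 by a factor of 3.37, and that of the other 4 members by 1.09 to 1.43. A larger SE in H12 was common at the level of KLK6: over 788 genes with 200 to 1000 CPM in H33 the median factor was 4.57, and 633 of them (80.3%) had a factor at least as large as that of KLK6. That range was set after the data were seen. Over the 792 genes with a log2 fold change of at least 5 in both clones, the median factor was 1.02.

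The 5 members lie in 1 stretch of the cluster. GENCODE 29 on GRCh38 places KLK5 (ENSG00000167754) at chr19:50943303-50953093, KLK6 (ENSG00000167755) at chr19:50958631-50969673, KLK7 (ENSG00000169035) at chr19:50976482-50984099, KLK8 (ENSG00000129455) at chr19:50996007-51002711 and KLK10 (ENSG00000129451) at chr19:51012739-51020175, all on the minus strand. Together they span 76873 bases of a cluster of 265098 bases. Of the 10 family genes not analysed here, KLK9 lies inside this stretch, and KLK1, KLK2, KLK3, KLK4 and KLK15 lie on the side of KLK5. KLK11, KLK12, KLK13 and KLK14 lie on the side of KLK10.

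The nearest analysed gene on each side of the cluster had a smaller fold change than any member. The family was chosen by its fold changes in these same comparisons, so this order was partly set by the choice. All values of neighbours set beside members here are a description. C19orf48, on the KLK5 side, stood at 122 CPM in H33 and 113 CPM in H12, against 60.2 CPM in HepG2, with log2 fold changes of 1.02 (SE 0.07) and 0.91 (SE 0.10) in the authors' deposited tables. CTU1, a tRNA thiolation enzyme gene on the KLK10 side, stood at 2.16 CPM in H33 and 1.85 CPM in H12, against 0.872 CPM in HepG2, with 1.31 (SE 0.16) and 1.08 (SE 0.18) in the authors' deposited tables. Of the 5 nearest analysed genes on each side, 8 were called higher and 2 lower in each clone, where 44.2% of all genes in H33 and 41.8% in H12 were higher, and 45.3% and 44.3% lower. Further out, the authors' deposited tables give JOSD2 3.31 in H33 and 3.08 in H12, and POLD1, the catalytic subunit of a replicative polymerase, 0.75 and 0.59. EMC10, a subunit of a membrane protein insertion complex, had 4.94 (SE 0.32) and 6.45 (SE 0.24), and the aspartic protease gene NAPSA 5.38 and 5.64 in the authors' deposited tables. On the KLK10 side VSIG10L had -1.77 and -1.79, the electron transfer gene ETFB -1.46 and -1.60, ZNF175 2.06 and 2.12, and SPACA6P-AS 3.99 and 4.18 in the authors' deposited tables. The 10 neighbours ranged from -1.77 to 5.38 in H33 and from -1.79 to 6.45 in H12 in the authors' deposited tables. When every level below 0.1 CPM is raised to that value, EMC10 had 4.84 in H33 and 6.27 in H12, and in H12 that lay above KLK8 (6.03) and KLK10 (6.13), while the other 9 neighbours lay below every member in both clones.

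**Figure D3:**
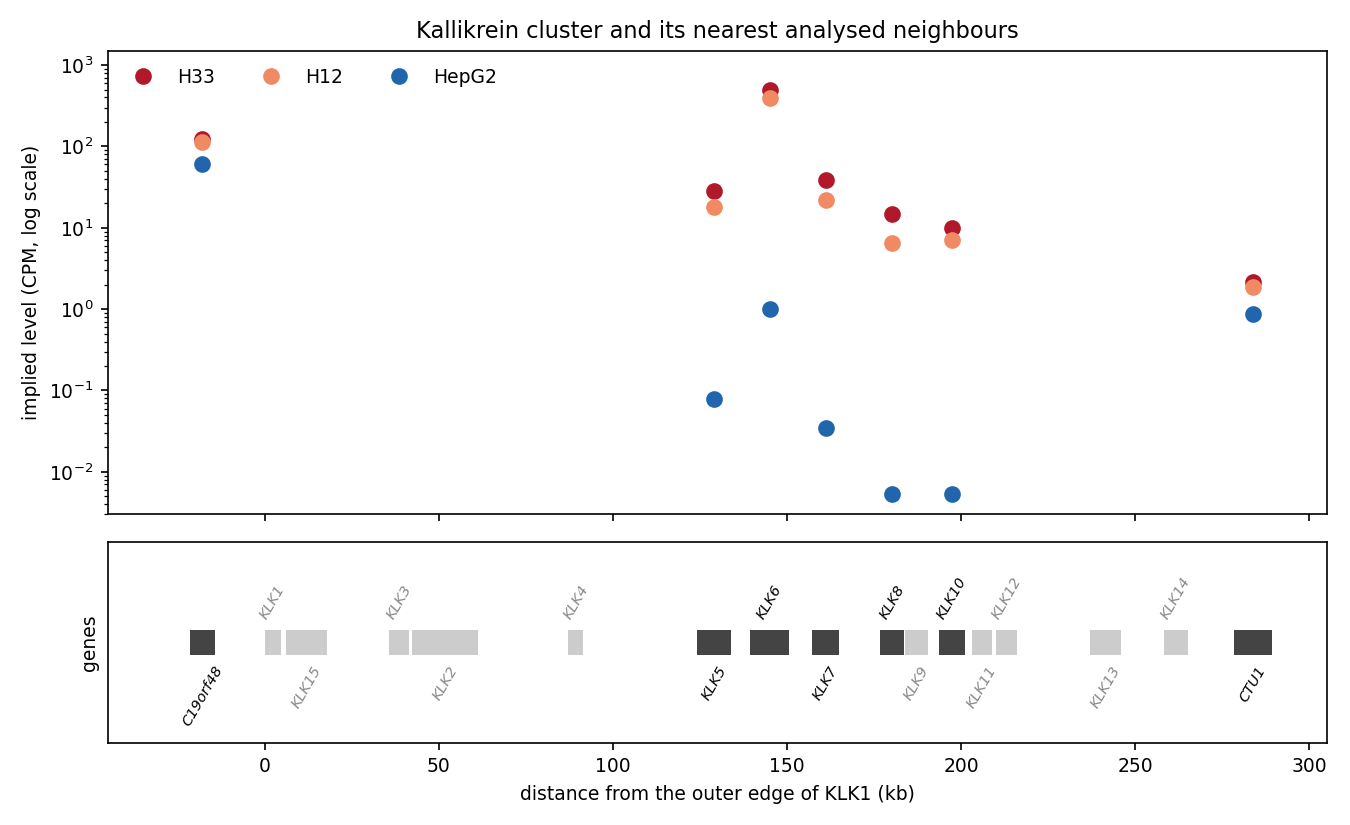
Implied levels in CPM (log scale, top) of the analysed genes of the cluster and of the nearest analysed gene on each side, by distance in kilobases from the outer edge of KLK1; the lower strip shows the annotated genes to scale, dark where analysed and light where not. The 5 members lie in 1 stretch that also holds KLK9, which has no points, with both clones far above HepG2, while C19orf48 (122, 113 and 60.2 CPM in H33, H12 and HepG2) and CTU1 (2.16, 1.85 and 0.872 CPM) lie close together.

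Reads could be shared with annotated transcripts that overlap the members. AC011473.4, a protein-coding annotation on the same strand that runs over KLK8, covers 40.1% of the exon bases of KLK8, and 34.1% of the 50-base words in KLK8 transcripts also occur in it, so the level of KLK8 is uncertain. Antisense annotations cover 12.2% of the exon bases of KLK5, 20.3% of those of KLK6 and 6.23% of those of KLK10. Whether strand was used in counting is not given in the sources used here, so their reads cannot be told apart from those of these genes. No 50-base word was shared between any of the members, and words shared with other genes were 0.554% in KLK7 and 1.40% in KLK10.

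Genes of the kallikrein system moved in both directions. Of 24 inhibitors listed from general knowledge, 13 were analysed in each clone, and 2 were called higher and 10 lower in H33 and in H12, where 44.2% of all genes in H33 and 41.8% in H12 were higher, and 45.3% and 44.3% lower. Their median log2 fold change in the authors' deposited tables was -5.67 in H33 and -5.08 in H12. The analysed inhibitors summed to 1984 CPM in H33 and 1977 CPM in H12, against 17051 CPM in HepG2. SERPINA3, named after its values were seen, gave most of the sum in the clones. It stood at 1464 and 1261 CPM, against 1417 CPM in HepG2, and was not called in either clone. SPINT2, a membrane-bound Kunitz inhibitor of serine proteases, rose in H33 by 6.69 (SE 0.12) and in H12 by 6.83 (SE 0.12) in the authors' deposited tables, to 31.1 CPM and 33.7 CPM, against 0.302 CPM in HepG2. The broad inhibitor A2M stood at 7.62 CPM in H33 and 52.1 CPM in H12, against 3120 CPM in HepG2. Kallistatin (SERPINA4), a plasma inhibitor of tissue kallikrein, stood at 0.156 CPM in H33 and 0.444 CPM in H12, against 33.7 CPM in HepG2. SERPINC1 had 0.0434 CPM in H33 and 4.16 CPM in H12, against 251 CPM in HepG2, SERPINF2 had 2.54 and 10.2 CPM against 532 CPM, and SERPING1 had 0.761 and 0.589 CPM against 38.6 CPM. Most of these are plasma proteins made by hepatocytes, and the list overlaps the hepatocyte markers in SERPINA1. The implied SE of the H12 fold change was 1.56 for A2M and 1.18 for SERPINC1, against 0.06 and 0.11 in H33. No difference between the clones is read from the levels of the lowered inhibitors.

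Of 24 activating and partner proteases 15 were analysed, and 2 were called higher and 12 lower in each clone, beside 44.2% higher and 45.3% lower over all genes in H33 and 41.8% and 44.3% in H12 (medians -4.81 and -4.60 in the authors' deposited tables). PLAU, the urokinase that makes plasmin from plasminogen, rose in H33 by 6.59 (SE 0.06) and in H12 by 6.76 (SE 0.23) in the authors' deposited tables, reaching 456 CPM and 513 CPM, against 4.73 CPM in HepG2. Plasminogen (PLG), named after its values were seen, was lower, at 0.467 CPM in H33 and 1.05 CPM in H12, against 60.3 CPM in HepG2. The implied SE of the PLG fold change was 0.11 in H33 and 0.70 in H12. Prothrombin (F2) had 0.370 CPM in H33 and 6.23 CPM in H12, against 421 CPM in HepG2. Its fold change had an implied SE of 0.07 in H33 and 1.33 in H12. Hepsin (HPN), a membrane serine protease, had 0.150 CPM in H33 and 0.635 CPM in H12, against 55.7 CPM in HepG2, and F10 had 0.169 and 0.927 CPM against 64.8 CPM. The metalloprotease MEP1A lay at the fitted floor in H33 and at 0.0287 CPM in H12, against 2.24 CPM in HepG2. Plasma kallikrein (KLKB1), whose name is close but whose gene lies outside the cluster and the rule, had -5.84 (SE 0.40) in H33 and -4.60 (SE 0.34) in H12 in the authors' deposited tables and is named here after its values were seen.

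Of 30 substrates and protease-activated receptors 18 were analysed, with 8 called higher and 10 lower in each clone, a split close to the 44.2% higher and 45.3% lower of all genes in H33 and the 41.8% and 44.3% in H12 (medians -0.59 and -0.91 in the authors' deposited tables). EPHB2, a receptor tyrosine kinase that KLK8 cleaves in mouse brain, rose in H33 by 9.22 (SE 0.12) and in H12 by 8.93 (SE 0.17) in the authors' deposited tables, to 64.2 CPM and 52.2 CPM, against 0.108 CPM in HepG2. The collagen gene COL4A1 had 12.2 CPM in H33 and 12.6 CPM in H12, against 0.0737 CPM in HepG2. Among the receptors, F2RL2 had 6.98 CPM in H33 and 5.62 CPM in H12, against 0.0285 CPM in HepG2. F2RL1, which encodes protease-activated receptor 2, a target of trypsin-like kallikreins, rose by 2.59 (SE 0.04) and 2.73 (SE 0.10), and F2R by 3.93 (SE 0.04) and 4.06 (SE 0.17), in H33 and H12 in the authors' deposited tables; F2RL1 and F2R were named after their values were seen. Fibronectin (FN1) had 42.3 CPM in H33 and 214 CPM in H12, against 14161 CPM in HepG2, kininogen (KNG1) had 0.0237 and 0.362 CPM against 18.4 CPM, the desmosomal cadherin DSC2 had 0.144 and 1.10 CPM against 60.6 CPM, and E-cadherin (CDH1) had 1.44 and 0.673 CPM against 46.6 CPM. In H12 the implied SE was 1.35 for FN1, 0.72 for KNG1, 0.70 for DSC2 and 0.66 for CDH1. In H33 it was 0.10, 0.20, 0.10 and 0.08.

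Of 28 steroid receptors and epithelial regulators 19 were analysed, and 6 were called higher and 12 lower in each clone, beside 44.2% higher and 45.3% lower over all genes in H33 and 41.8% and 44.3% in H12 (medians -0.37 and -0.46 in the authors' deposited tables). The epithelial ETS factor EHF rose in H33 by 7.88 (SE 0.09) and in H12 by 7.82 (SE 0.15), and TP63, which specifies squamous epithelium, by 6.59 (SE 0.07) and 6.60 (SE 0.11), in the authors' deposited tables. EHF reached 216 CPM in H33 and 208 CPM in H12, against 0.918 CPM in HepG2, and TP63 reached 156 CPM and 157 CPM, against 1.62 CPM. The prostate homeobox gene HOXB13 had 11.9 CPM in H33 and 10.6 CPM in H12, against 0.0963 CPM in HepG2. FOXA2 had 0.0740 CPM in H33 and 0.643 CPM in H12, against 31.9 CPM in HepG2, and the thyroid hormone receptor THRB had 0.112 CPM in H33 and 0.642 CPM in H12, against 31.7 CPM in HepG2. Their implied SE was 0.14 and 0.13 in H33, and 0.64 for each in H12.

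Other squamous genes did not share 1 direction. Of 25 keratinocyte and squamous genes, 7 were analysed in H33, with 4 higher and 3 lower, and 6 in H12, with 3 higher and 3 lower, beside the same shares over all genes (medians 2.35 and 1.90 in the authors' deposited tables). KRT15, a basal keratin, had 38.9 CPM in H33 and 47.8 CPM in H12, against 0.834 CPM in HepG2, S100A9 had 13.4 and 5.96 CPM against 0.224 CPM, and KRT16 had 2.38 and 2.07 CPM against 0.0461 CPM. The desmosomal cadherin DSC3 lay at the fitted floor in H33 and at 0.0812 CPM in H12, against 3.77 CPM in HepG2.

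**Figure D4:**
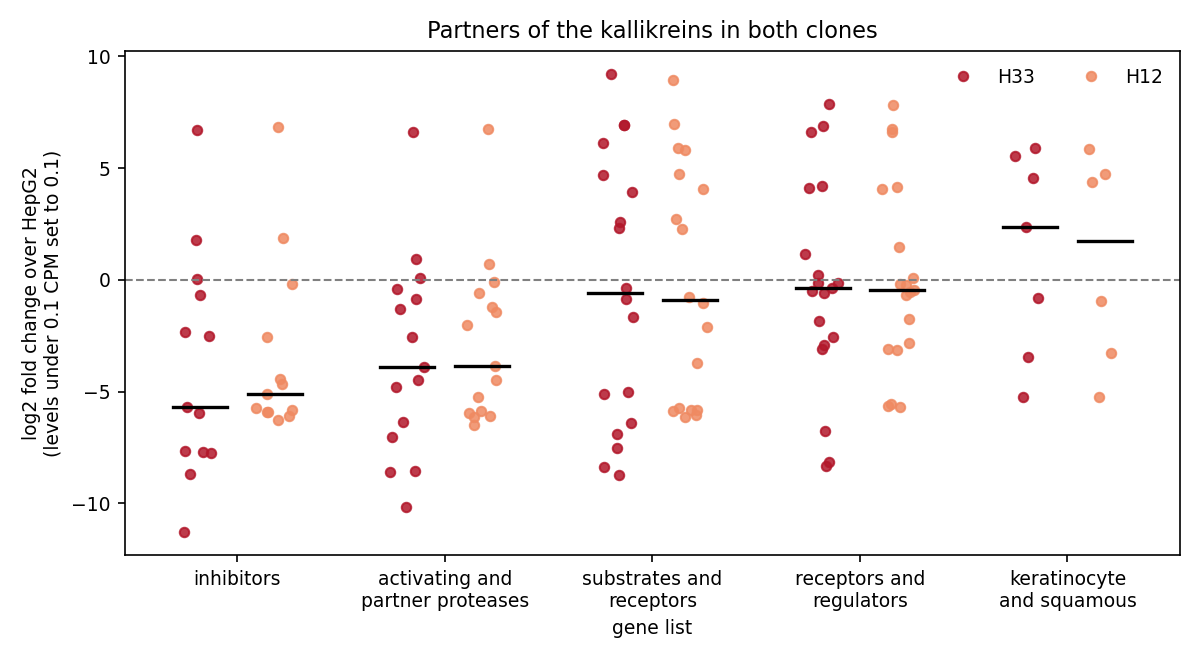
Log2 fold change over HepG2 of each analysed gene of the 5 lists (points), H33 left of H12, computed from implied levels with values under 0.1 CPM set to 0.1 CPM; black bars are medians. Inhibitors and partner proteases lie mostly below 0, with SPINT2 and PLAU as the top points of these lists, and the other lists spread to both sides.

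By Euclidean distance over the implied log2 CPM of the 3 groups, the genes nearest to KLK7 were MME (0.56), NTS (0.74), PDK4 (0.90), HOXB2 (1.12) and NRROS (1.15). Those nearest to KLK8 were KLK10 (0.58), LHX1 (1.03), LMNTD1 (1.18), TNFRSF6B (1.28) and TRIML2 (1.33), and those nearest to KLK10 were LHX1 (0.47), KLK8 (0.58), TRIML2 (0.80), LMNTD1 (1.27) and MINDY4 (1.33). MME, a membrane metallopeptidase, stood at 31.9 CPM in H33 and 16.7 CPM in H12, against 0.0423 CPM in HepG2. With 3 points per gene, 1 of them at the floor for KLK8 and KLK10, this is a description only.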

How the data were processed

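Poly-A RNA of 18 libraries was grouped by title and source name into H33, H12 and HepG2. Tools listed in the submitters' processing notes, in no stated order, are edgeR 3.28.0, RSEM, STAR 2.5.3a and bcl2fastq 2.20.0.422, with the build GRCh38.p10. Per the file headers, the authors deposited for each gene the log2 fold change (clone minus HepG2), mean log2 CPM, likelihood ratio (a test score), and a p-value with its adjusted value. The sources used here do not give filters, scaling, annotation release or strand.

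Recomputing the Benjamini-Hochberg adjustment gave the deposited adjusted p to within 0.000152 for H33 and 0.000105 for H12. Group levels were implied from mean level and fold change with equal group sizes, and between the 2 tables the HepG2 levels of 13524 genes with a mean above 1 CPM differed by an SD of 0.0119 on the log2 scale. The HepG2 values printed come from the H33 table. The SE of a fold change is its absolute value over the root of the likelihood ratio; it can be too small, and near the floor it measures no sampling spread. The H33 minus H12 difference was divided by the root of the summed squared SE (two-sided normal tail, Benjamini-Hochberg over shared genes), and its code was tested on simulated fold changes that took the implied SE as true. Exon bases, positions and overlaps come from GENCODE 29, promoters from RefSeq. Members and lists were chosen with earlier results of these data known.

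Named genes are all members, the 5 nearest analysed genes on each side of the cluster, up to 4 called members of each list per clone with the largest change, the 5 genes nearest in pattern to KLK7, KLK8 and KLK10, the cell type markers as counts with examples, and both fusion partners. The plan named count tests for files with counts; the files held statistics, so the authors' values were used. Alternatives were stricter thresholds, a level filter, doubled SE, floored levels, median centring and a shorter promoter window. Software was matplotlib 3.10.9, pandas 2.3.3, scipy 1.17.1 and numpy 2.4.6 under Python 3.11.15.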

Additional observations from a re-analysis of the deposited data

Results flagged for a closer look

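KLK7 differed between the clones: its log2 fold change over HepG2 was 0.80 higher in H33 than in H12, by the test of the difference itself over all shared genes (adjusted p = 0.0264). It was not tested among genes with at least 0.1 CPM in all 3 groups, as its HepG2 level is lower. KLK7 was picked for its change in these comparisons, and the call was lost with the implied SE doubled (adjusted p = 1.00) and at a threshold of 0.01.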

How the results depend on the processing

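All 5 members stayed past the threshold as higher in each clone under other settings. These were an adjusted p of 0.01, a minimum absolute log2 change of 1, a mean of at least 1 log2 CPM and Bonferroni adjustment. No share of all genes is given at these settings, and nothing is read from this count either. The family was chosen by these fold changes, and 4 members had HepG2 levels under 0.1 CPM. At the main threshold all 604 such genes in the H33 table and all 584 in the H12 table were called higher. The count of members that differ between H33 and H12 was 1, and it was 0 at a threshold of 0.01, 0 with SE doubled and 0 among genes with at least 0.1 CPM implied in all 3 groups, where KLK6 is the 1 member tested. Over all shared genes these settings called 563 and 67 of 14765 and 273 of 13449 genes, against 797.

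When every level below 0.1 CPM is raised to that value, the log2 fold changes in H33 and H12 were 8.14 and 7.48 for KLK5, 8.60 and 7.78 for KLK7, 7.21 and 6.03 for KLK8, and 6.63 and 6.13 for KLK10, while KLK6 did not move. The order of KLK5 to KLK10 by fold change thus depends on the floor, whereas the levels in the clones do not. Subtracting the median of all genes moved each fold change by less than its SE. In the 150 bases nearest the start, 0 of the 4 promoters held TGACG (1 in the whole window) and 1 held an E-box (2 in the whole window). No paired analysis was possible because the tables hold no values per library; the replicate block was therefore not run, and depth limits cannot be set.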
